A study of Mus musculus with 16 samples.

Results

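Polyamine genes were followed in gastrocnemius, a muscle of the calf, through 18 probes of 8 genes among the 41174 probes of the array. They were Smox, Odc1, Amd1, Srm, Sms, Sat1, Oaz1 and Oaz2, and every probe carrying one of these gene names was taken. Smox was chosen for its own measured difference between the diets, so that its difference is given here as a description without a test. The other 7 genes were chosen because they belong to the same pathway, with earlier results of these data known. Male C57BL/6N mice, 3 months old at the start, had eaten for 8 weeks a corn-oil high-fat diet with 35% lipid by weight and rosiglitazone at 10 mg per kg diet (cHF+ROSI, 8 mice). In the other 8 mice (cHF+F+ROSI), a concentrate of n-3 LC-PUFA with 46% DHA and 14% EPA took the place of 15% of the dietary lipids in the same diet. Both groups therefore carried the high-fat diet and the drug, an agonist of the nuclear receptor PPARγ. Their diets differed only in the concentrate and the lipids that it replaced. The paper reports a lower final body weight in cHF+F+ROSI than in cHF+ROSI mice, and its part in the results was not tested. All mice had fasted for 10 h and were then given Chow overnight before they were killed, and no mouse without rosiglitazone is analysed here. The comparison asks which transcripts of muscle differ when the concentrate is added to the drug.

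Polyamines are small, positively charged molecules that bind nucleic acids and are needed for cell growth and translation. Ornithine decarboxylase (Odc1) makes putrescine, S-adenosylmethionine decarboxylase (Amd1) supplies the aminopropyl groups, spermidine synthase (Srm) and spermine synthase (Sms) add them, spermine oxidase (Smox) turns spermine back into spermidine with release of hydrogen peroxide, and spermidine/spermine acetyltransferase (Sat1) marks polyamines for export or breakdown. The antizymes Oaz1 and Oaz2 bind ornithine decarboxylase, lead it to degradation and reduce polyamine uptake. In skeletal muscle, the pathway is known to respond to androgens, growth and disuse, and Smox is known to fall in muscle that wastes.

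The start regions of Smox, Amd1 and Odc1 are shown because these were the genes whose values spread most between mice among the members. Amd1 also moved together with 1 of the Smox probes, the downstream probe described below. Each line gives the 250 bases before the annotated start, 5′ to 3′ on the strand of the gene, from RefSeq with assembly GRCm38.p6. Smox lies at chr2:131491612-131491861 on the plus strand, Amd1 at chr10:40302189-40302438 on the minus strand and Odc1 at chr12:17544623-17544872 on the plus strand. Capitals mark matches to the letters searched on both strands.
Smox: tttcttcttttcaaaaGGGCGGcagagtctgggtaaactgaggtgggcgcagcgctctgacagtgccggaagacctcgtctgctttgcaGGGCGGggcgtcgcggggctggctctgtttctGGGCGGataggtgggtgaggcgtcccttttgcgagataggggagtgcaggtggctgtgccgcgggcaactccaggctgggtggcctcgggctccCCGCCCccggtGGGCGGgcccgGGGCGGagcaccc
Amd1: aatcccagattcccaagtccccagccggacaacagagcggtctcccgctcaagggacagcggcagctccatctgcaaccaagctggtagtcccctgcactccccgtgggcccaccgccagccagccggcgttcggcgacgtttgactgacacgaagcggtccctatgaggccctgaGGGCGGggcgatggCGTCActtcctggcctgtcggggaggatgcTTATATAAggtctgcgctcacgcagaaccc
Odc1: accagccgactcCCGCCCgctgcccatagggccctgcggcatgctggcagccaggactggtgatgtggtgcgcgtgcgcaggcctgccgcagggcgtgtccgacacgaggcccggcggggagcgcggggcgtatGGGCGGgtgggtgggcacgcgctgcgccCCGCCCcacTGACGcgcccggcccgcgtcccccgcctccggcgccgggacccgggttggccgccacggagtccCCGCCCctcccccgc
The TATA box was searched as TATAA and the GC box as GGGCGG. For the E-box the letters were CACGTG, for the site of the factor NF-Y they were CCAAT, and for one side of the cyclic AMP response element they were TGACG. The DR1, a repeat bound by PPAR with RXR, was searched too. The Smox region held 6 GC boxes, the nearest 13 bases before the start, and no match to the other letters. In Amd1, 2 overlapping TATA matches on opposite strands lay 27 bases before the start, with 1 GC box and 1 TGACG. Odc1 held 4 GC boxes and 1 TGACG. Of 32851 regions of the same length, 22.8% held the TATA box, 32.7% the GC box, 6.02% the E-box, 33.8% the NF-Y site, 17.8% the response element and 0.0335% the DR1. A match is a description of letters and not a measured binding site.

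Each mouse had 1 two-color array, with its own RNA in Cy5 and one equimolar pool in Cy3 on every array. A level below is the log2 ratio of the mouse to that pool after normalization. A level of 0 need not equal the pool at a given probe. At probe c of Oaz2, for example, every mouse lay below 0. Levels of different probes cannot be compared with each other. The diet difference is the mean level of cHF+F+ROSI minus that of cHF+ROSI mice, with the standard error (SE) from limma, and p-values were adjusted by Benjamini-Hochberg over 19398 probes. Dyes were not swapped, and on every slide the cHF+ROSI arrays held positions 1 and 3 and the cHF+F+ROSI arrays positions 2 and 4, so that position and diet cannot be told apart. The mice were housed in pairs and cages are not given, so that mice of a cage may be counted as separate animals. Before any comparison, 1 array stood apart. The ratios of cHF+ROSI replicate 1 had a mean correlation of 0.336 with the other arrays of its diet, against 0.669 to 0.754 for the other 7, and among the 17 member probes this mouse was the highest of its group in 7 and the lowest in 6. Results that rest on it are given with and without it.

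Of the 18 probes, 17 were kept by the filter on weak signals. The remaining probe, the third of Sms (A_52_P545192, X chromosome), had a Cy3 signal only 1.70 times background, and its difference without the filter was -0.06 (unadjusted p = 0.243 from limma). All 17 kept probes were well above background and unsaturated on all 16 arrays. For 14 of the 18 probes, the accession in the files matched a RefSeq transcript of the same gene. Probe positions are those of build mm8, as the files give them, and whether a probe lies in an exon or an untranslated region was not determined here.

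Smox was measured by a pair of probes 7.87 kb apart. The upstream probe (A_52_P430194, mm8 chr2:131208549-131208608), which the files link to a cDNA clone, is the one of the study's list. The downstream probe (A_51_P372826, chr2:131216416-131216475) is linked to the RefSeq transcript of Smox. At the upstream probe, the cHF+ROSI mice, in the order of their replicate numbers, had levels of 0.03, -0.86, -0.16, -0.96, -0.30, -0.35, -1.82 and -0.52. The cHF+F+ROSI mice had -0.06, 0.12, -0.35, -0.15, -0.40, 0.07, -0.23 and 0.29. The cHF+ROSI median of -0.44 was exceeded by all 8 cHF+F+ROSI mice, yet the groups overlapped, since cHF+ROSI replicates 1, 3, 5 and 6 lay within the range of the other diet. The diet difference was 0.53 (SE 0.20), a ratio of 1.44, with means of -0.62 ± 0.59 (SD, n = 8) in cHF+ROSI and -0.09 ± 0.24 (SD, n = 8) in cHF+F+ROSI mice. In cHF+ROSI mice replicate 7 was the lowest and replicate 1 the highest. Without replicate 7 the difference was 0.36 (SE 0.14), and without replicate 1 it was 0.62 (SE 0.20).

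At the downstream Smox probe, the levels of the cHF+ROSI mice were -0.49, 0.0029, 0.48, 0.06, 0.55, 0.23, -0.17 and 0.36. Those of the cHF+F+ROSI mice were 0.52, 0.91, -0.34, 0.45, -0.15, 0.33, 0.05 and 1.00. The groups overlapped over most of their range, and only 2 cHF+F+ROSI mice, replicates 2 and 8, lay well above all cHF+ROSI mice. The difference was 0.22 (SE 0.19), and it was 0.13 (SE 0.18) without cHF+ROSI replicate 1. It was 0.03 with array quality weights, 0.14 without cHF+F+ROSI replicate 2 and 0.13 without cHF+F+ROSI replicate 8. Within the 4 slides, each with 2 mice of each diet, the upstream probe was higher in cHF+F+ROSI mice on every slide (0.30, 0.28, 0.25 and 1.28), whereas the downstream probe had differences of 0.53, -0.12, -0.19 and 0.67. The mouse with the highest upstream level of its group, cHF+ROSI replicate 1, had the lowest downstream level. The Cy3 signal of the pool differed between the arrays of the diets by -0.0004 at the upstream and 0.03 at the downstream probe. In bulk muscle, fewer cells of a type and less RNA per cell cannot be told apart, here and for all genes below.

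**Figure D1:**
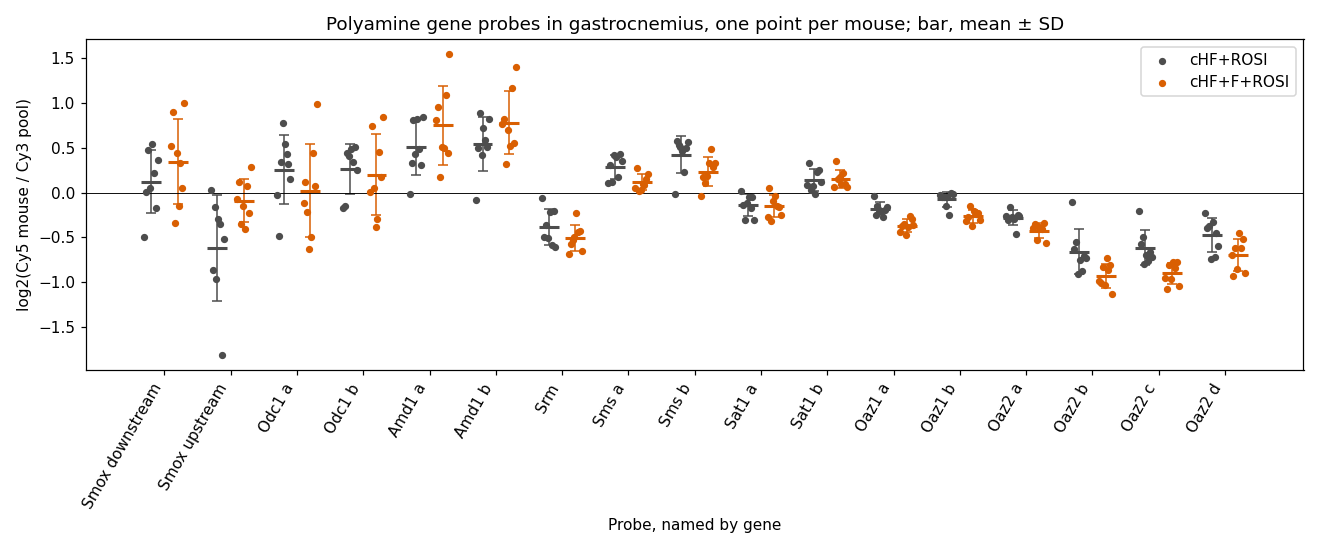
Log2 ratio of each mouse to the reference pool (vertical axis) for the 17 kept probes (horizontal axis), with cHF+ROSI mice in grey and cHF+F+ROSI mice in orange, 1 point per mouse and bars for the mean and SD. The groups overlap at every probe, and the Oaz1 probes show the narrowest spread, with means of -0.18 and -0.37 at probe a.

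Among the 15 kept probes of the other 7 genes, 8 had an unadjusted limma p of 0.05 or less, where 7.46% of all probes did. All 8 were lower in cHF+F+ROSI mice, as were 3.96% of all probes at this limit, and they belonged to 3 genes, Sms, Oaz1 and Oaz2. None passed after adjustment, where 0.0155% of all probes did, and the lowest adjusted p was 0.215. The median difference of the 15 probes was -0.17, beside -0.0014 over all probes, and their range was -0.29 to 0.25. Since the 7 genes were listed with earlier results of these data known, the count of 8 is a description. Without cHF+ROSI replicate 1 the count was again 8, all lower. It was 2 with scale normalization between arrays and 3 in the Cy5 channel alone. In the authors' table it was also 3, but that table holds all 18 member probes, with the Sms probe that the filter removed. Of the 15 kept probes, only b and c of Oaz2, described below, reached the limit there.

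The genes that start the pathway had a wide spread between mice. Odc1, the source of putrescine, is measured at chr12:17576429-17576487 (probe a) and chr12:17573473-17573532 (probe b). At probe a, cHF+ROSI mice had a lowest, median and highest level of -0.48, 0.33 and 0.78, and cHF+F+ROSI mice of -0.63, -0.02 and 1.00. The difference was -0.24 (SE 0.21, 95% interval -0.67 to 0.20, adjusted p = 0.842). At probe b it was -0.07 (SE 0.17, interval -0.42 to 0.29, adjusted p = 0.963), and -0.13 without cHF+ROSI replicate 1. Leaving out single mice moved the difference at probe a between -0.14 without cHF+F+ROSI replicate 4 and -0.38 without cHF+F+ROSI replicate 8, where the unadjusted p was 0.0490 in limma, and scale normalization between arrays gave -0.39. The cHF+F+ROSI mice thus covered the whole range of the other diet at probe a.

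Amd1 (probe a at chr10:39977091-39977032, probe b at chr10:39977957-39977898, minus strand) and Smox were the members at which all probes had a positive difference. At probe a, the cHF+ROSI mice had -0.011, 0.34, 0.81, 0.44, 0.83, 0.49, 0.31 and 0.85 in the order of replicates. The cHF+F+ROSI mice had 0.81, 0.96, 0.17, 0.51, 0.50, 1.095, 0.44 and 1.55. Replicates 2, 6 and 8 of cHF+F+ROSI lay above every cHF+ROSI mouse, and the others within their range. The difference was 0.25 (SE 0.17, interval -0.12 to 0.61, unadjusted p = 0.169, adjusted p = 0.788) at probe a and 0.24 (SE 0.15, interval -0.08 to 0.55, adjusted p = 0.748) at probe b. Without cHF+ROSI replicate 1, the lowest of its group at both probes, these were 0.17 and 0.15, and without cHF+F+ROSI replicate 8, the highest, 0.13 and 0.15. They were 0.05 and 0.12 with scale normalization between arrays, 0.10 and 0.11 with array weights, and 0.09 and 0.29 in the Cy5 channel alone. In the authors' table they were larger, 0.33 and 0.32 (unadjusted p = 0.111 and 0.0956 in limma). Amd1 has related copies in the mouse genome, and whether its probes also measure these was not tested.

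The synthases came next. Srm, which makes spermidine, was measured by 1 probe (chr4:147438124-147438183), with levels from -0.61 to -0.06 (median -0.43) in cHF+ROSI and from -0.68 to -0.22 (median -0.51) in cHF+F+ROSI mice. The difference was -0.12 (SE 0.08, unadjusted p = 0.167), and -0.07 without cHF+ROSI replicate 1, the highest of its group. Sms, which makes spermine, had a pair of kept probes on the X chromosome. At probe a (152789938 to 152789879), the cHF+ROSI levels were 0.11, 0.31, 0.12, 0.42, 0.39, 0.17, 0.43 and 0.36, and the cHF+F+ROSI levels were 0.05, 0.27, 0.02, 0.03, 0.10, 0.09, 0.15 and 0.21. All 8 cHF+F+ROSI mice lay below the cHF+ROSI median of 0.33, and 5 lay below the lowest cHF+ROSI mouse. The difference was -0.17 (SE 0.06, a ratio of 0.887), with an unadjusted p of 0.00952 and an adjusted p of 0.505 in limma, and an exact two-sided permutation p of 0.0126. At probe b it was -0.19 (SE 0.09, unadjusted p = 0.0457, adjusted p = 0.665 in limma), and this p rose above 0.05 with 11 of the 16 mice left out in turn. Without cHF+ROSI replicate 1, the lowest of its group at both probes, the differences were -0.20 and -0.25, with unadjusted p of 0.00306 and 0.00289. In the authors' table they were -0.10 and -0.15 (unadjusted p = 0.289 and 0.230 in limma). Of 13 alternatives that kept all mice, the unadjusted p rose above 0.05 in 3 at probe a and 7 at probe b. At Sat1, the acetyltransferase, no difference was detectable: it was -0.02 (SE 0.06, interval -0.15 to 0.11) and 0.01 (SE 0.06, interval -0.11 to 0.13) at its probes.

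**Figure D2:**
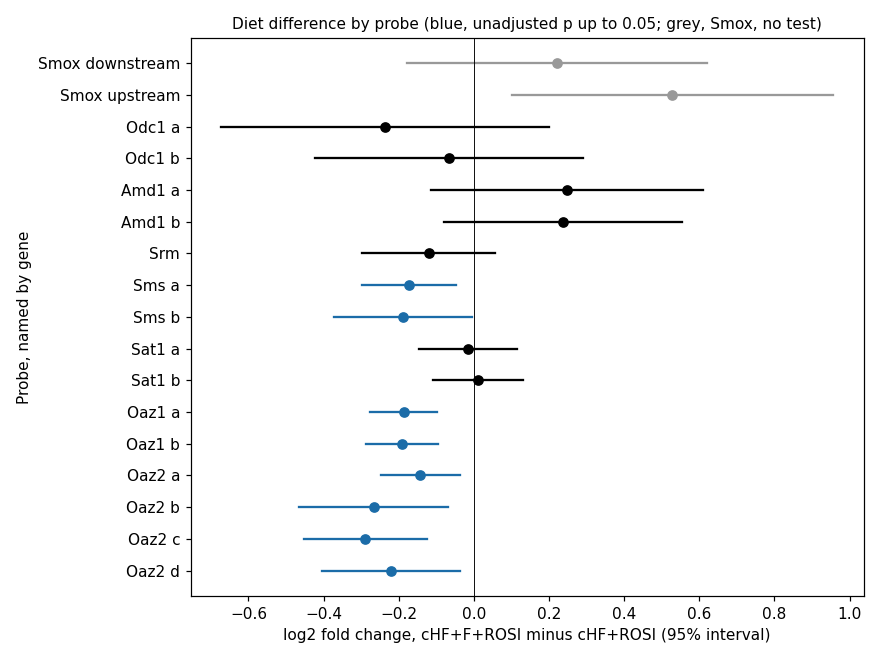
Diet difference, cHF+F+ROSI minus cHF+ROSI, in log2 units (horizontal axis) for the 17 probes, with bars for the 95% interval. Blue marks an unadjusted limma p of 0.05 or less and grey the Smox probes, which were not tested. Since Smox was chosen by its difference, the grey bars are a description, and whether they reach 0 is no test. The 8 blue probes, of Sms, Oaz1 and Oaz2, lie between -0.29 and -0.14.

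Both Oaz1 probes and probe c of Oaz2 had the lowest p-values of the members tested. Oaz1, the antizyme expressed in nearly all tissues, was measured at chr10:80231983-80232042 (probe a) and chr10:80231600-80231659 (probe b). At probe a the cHF+ROSI levels were -0.03, -0.25, -0.14, -0.19, -0.20, -0.27, -0.19 and -0.16, and the cHF+F+ROSI levels were -0.44, -0.38, -0.35, -0.47, -0.38, -0.26, -0.29 and -0.36. Of the 8 cHF+F+ROSI mice, 7 lay below the lowest cHF+ROSI mouse, and the exception was replicate 6. The difference was -0.19 (SE 0.04, a ratio of 0.878, unadjusted p = 0.000388, adjusted p = 0.215 in limma). The exact two-sided permutation p was 0.000311, where the smallest that 8 against 8 mice can give is 0.000155. At probe b, levels ran from -0.24 to -0.0021 in cHF+ROSI and from -0.37 to -0.15 in cHF+F+ROSI mice, and the difference was again -0.19 (SE 0.05, adjusted p = 0.238 in limma). The SD between mice of the same diet was small at both probes, at percentiles 3.37 and 6.21 of all probes, against percentiles 94.1 to 97.8 for those of Smox, Odc1 and Amd1. A ratio near 0.88 is thus a small difference beside a small spread, and neither Oaz1 probe passed after adjustment. In the authors' table both differences were -0.12, with unadjusted p of 0.0774 and 0.134 in limma. With scale normalization between arrays, probe a had -0.13 (unadjusted p = 0.140 in limma) and probe b -0.15 (unadjusted p = 0.00355 in limma).

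Oaz2, the related antizyme that also targets ornithine decarboxylase, had 4 probes on chromosome 9, of which b and c overlap in position (65487749 to 65487808 and 65487792 to 65487851) and are not independent. At probe c the cHF+ROSI mice lay from -0.80 to -0.20 with a median of -0.68, and the cHF+F+ROSI mice from -1.07 to -0.77 with a median of -0.90. Of the latter, 6 lay below the lowest cHF+ROSI mouse. The difference was -0.29 (SE 0.08, a ratio of 0.818, unadjusted p = 0.00159, adjusted p = 0.293 in limma, exact two-sided permutation p = 0.000622). The other probes had differences of -0.14 (a, with cHF+F+ROSI replicate 2 left out for a spot flagged as an outlier), -0.27 (b) and -0.22 (d), with adjusted p of 0.529 or more from limma. Mouse cHF+ROSI replicate 1 had the highest level of its group at probes b, c and d, and without it the differences at these probes were -0.19, -0.23 and -0.18, with unadjusted p of 0.0116, 0.00139 and 0.0468. Under scale normalization between arrays, the difference was 0.06 at probe a and -0.06, -0.03 and -0.0143 at probes b, c and d.

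Within slides, both Oaz1 probes were lower in cHF+F+ROSI mice on all 4 slides (probe a -0.22, -0.26, -0.04 and -0.22, probe b -0.18, -0.19, -0.09 and -0.31). The Oaz2 probes b, c and d were lower on all 4 slides as well, between -0.55 and -0.03, and were closest to 0 on slide 3. On that slide probe a of Oaz2 had 0.0054 and probe b of Sms 0.04, while both were lower on the other 3 slides. In the Cy5 channel alone the Oaz1 differences were -0.14 (SE 0.07, unadjusted p = 0.0734 in limma) and -0.08 (SE 0.07, unadjusted p = 0.253 in limma), and the Cy3 signal of the pool differed by 0.04 (SE 0.05) and 0.07 (SE 0.04) between the arrays of the diets. For Oaz2 the Cy5 differences were -0.10, -0.31, -0.28 and -0.22, beside Cy3 differences from -0.06 to 0.02.

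**Figure D3:**
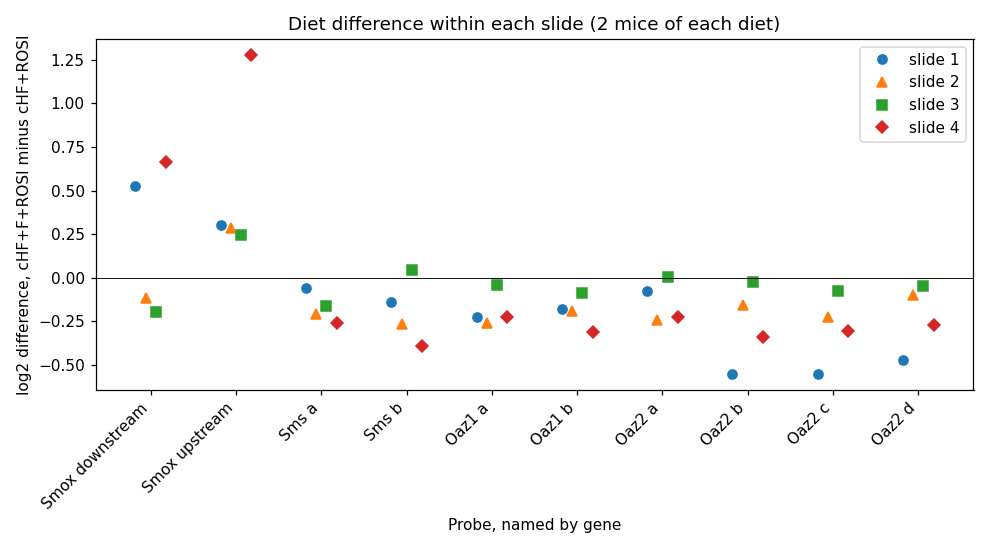
Diet difference in log2 units (vertical axis) within each of the 4 slides, each from 2 mice of each diet, for the probes of Smox, Sms, Oaz1 and Oaz2 (horizontal axis). The Smox upstream probe lies above 0 and the Oaz1 probes below 0 on every slide, and slide 4 holds the highest Smox upstream difference, 1.28.

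The relation of the members to Smox across mice was examined with the diet mean subtracted from each mouse, so that the choice of Smox by its diet difference did not enter. Correlations are Pearson's r over 16 mice, with p from 100000 permutations within diets and Spearman's rho beside, and 30 relations were computed, 15 for each Smox probe. The adjusted p comes from a limma fit with Smox and diet as terms over all probes. All levels share the reference pool and each mouse's array. The Smox probes themselves had r = 0.41 (p = 0.0786) and rho = 0.55. Within cHF+F+ROSI mice r was 0.92 (exact permutation p = 0.00198), and within cHF+ROSI mice it was 0.25 (exact permutation p = 0.555). The difference of these was not tested. Without cHF+ROSI replicates 1 and 7, the farthest mice at the upstream probe, r was 0.81, and without replicate 1 alone it was 0.71.

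For the downstream Smox probe, Amd1 was the closest member. Probe a of Amd1 had r = 0.88 (permutation p = 3e-05, adjusted p = 0.0177 from limma) and rho = 0.85, and held rank 5 of the 19308 probes ranked by r. Within the diets r was 0.97 in cHF+ROSI (exact permutation p = 0.000223) and 0.84 in cHF+F+ROSI mice (exact permutation p = 0.00900). It was 0.82 without the 2 mice farthest from the median of Smox, cHF+F+ROSI replicate 3 and cHF+ROSI replicate 1, and 0.86 without the latter alone. Probe b had r = 0.83 (permutation p = 0.000220, adjusted p = 0.0556 from limma) and rho = 0.81. The mice with high levels at the downstream Smox probe thus had high Amd1 in both diets, as the replicates 2 and 8 of cHF+F+ROSI show at both genes. With slide means also removed, r of probe a was 0.87. Under scale normalization between arrays it was 0.65, with a permutation p of 0.118.

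Odc1 pointed the same way with less strength. For the downstream Smox probe, r was 0.51 (p = 0.0640, rho = 0.52) at probe a of Odc1 and 0.63 (p = 0.0178, rho = 0.56, adjusted p = 0.325 from limma) at probe b. The latter was 0.60 without the 2 farthest mice (permutation p = 0.0548) and 0.58 without cHF+ROSI replicate 1 alone (permutation p = 0.0619). Without cHF+F+ROSI replicate 8, r was 0.33 at probe a and 0.53 at probe b of Odc1. Amd1 and Odc1 had r of 0.60 to 0.72 with each other across their probe pairs. The antizyme Oaz2 had the opposite sign. At its probes b, c and d r was -0.64, -0.68 and -0.57 (permutation p = 0.00329, 0.00264 and 0.0267), with adjusted p of 0.323 or more. Within diets probe c had r = -0.92 in cHF+F+ROSI (exact permutation p = 0.00149) and -0.57 in cHF+ROSI mice (exact permutation p = 0.144). Without cHF+ROSI replicate 1 these values were -0.56, -0.60 and -0.48 (permutation p = 0.0449, 0.0312 and 0.0853). Srm had r = -0.52 (permutation p = 0.0348) with all mice and -0.39 without that mouse. With scale normalization between arrays, probes b, c and d of Oaz2 had r of -0.32, 0.01 and 0.50 with the downstream probe, and with median centring they had -0.15, -0.09 and -0.12.

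By the fit, 8 of the 15 member probes were related to the downstream probe before adjustment (p of 0.05 or less), where 10.1% of all probes were, and 1, Amd1 probe a, passed after adjustment, where 0.0206% did. By permutation 7 of 15 reached this limit, 3 positive and 4 negative. To the upstream probe, 0 of 15 were related by fit, where 9.07% of all probes were before and 0.00516% after adjustment, and r ran from -0.43 to 0.39 (lowest permutation p = 0.0940). For Amd1, r with the upstream probe was 0.39 and 0.23 with all mice and depended on single mice in both directions. It was 0.31 and 0.13 without cHF+F+ROSI replicate 8. At both probes, the permutation p stayed above 0.05 in 15 of the 16 runs with a mouse left out. Without cHF+ROSI replicate 1, Amd1 had r of 0.65 and 0.60 with the upstream probe (permutation p = 0.000120 and 0.000650), whereas Odc1 had 0.32 and 0.29 (permutation p = 0.205 and 0.171) and the Oaz2 probes had values from -0.24 to -0.18 (permutation p of 0.420 or more). Without replicates 1 and 7 Amd1 had 0.78 and 0.80, and under scale normalization between arrays, with all 16 mice, -0.19 and -0.34. Within cHF+F+ROSI mice alone, 7 of 15 member probes were related to the upstream probe, with r of 0.93 and 0.91 for Amd1, 0.81 and 0.83 for Odc1 and -0.81, -0.79 and -0.75 for Oaz2 b, c and d, while within cHF+ROSI mice 1 was, probe a of Sms, with r = -0.73 (exact permutation p = 0.0279). The 7 probes belong to Amd1, Odc1 and Oaz2 alone, and probes b and c of Oaz2 overlap. For the counts within a single diet, the share over all probes was not computed. Whether these relations differ between the diets was not tested.

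**Figure D4:**
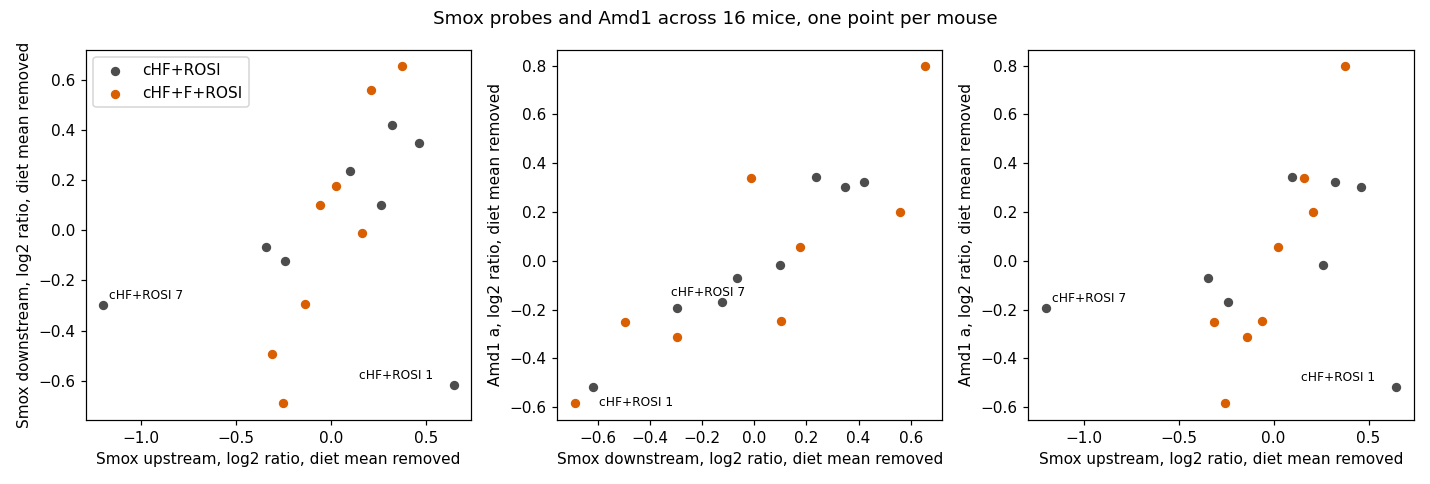
Levels with the diet mean removed, in log2 units on both axes, 1 point per mouse (cHF+ROSI grey, cHF+F+ROSI orange): Smox downstream against Smox upstream, Amd1 probe a against Smox downstream, and Amd1 probe a against Smox upstream. In the middle panel r is 0.88, and in the outer panels cHF+ROSI replicates 1 and 7 lie away from the other mice.

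**Figure D5:**
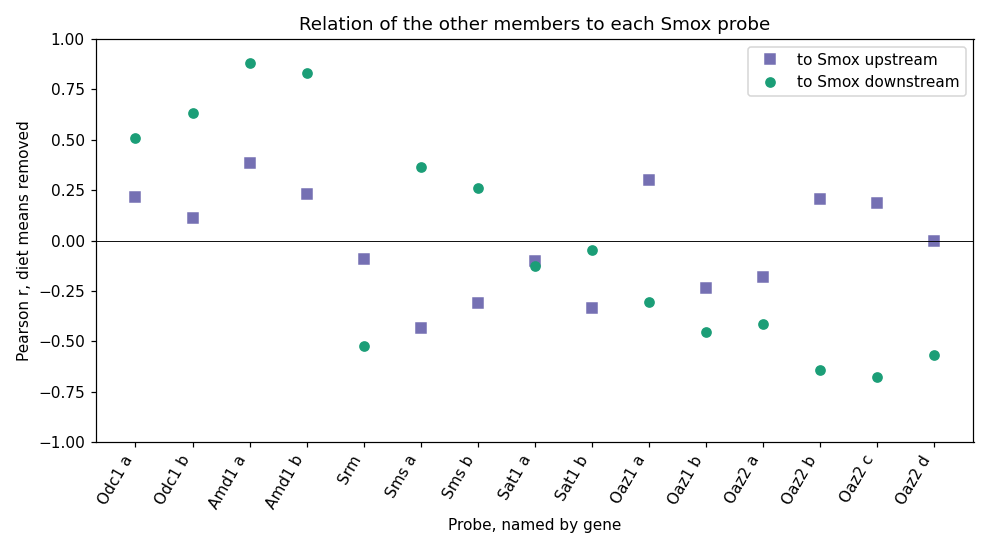
Pearson's r with the diet means removed (vertical axis, no unit) between each of the 15 member probes (horizontal axis) and the upstream (squares) or downstream (circles) Smox probe over 16 mice. For the downstream probe r runs from 0.88 at Amd1 a to -0.68 at Oaz2 c, and for the upstream probe all values lie between -0.43 and 0.39.

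The probes most like each Smox probe across mice, with diet means removed, were not members with 1 exception. For the upstream probe these were Myo10, a myosin of filopodia (r = 0.92), Olfr1410, an olfactory receptor (0.86), Adcy9, an adenylate cyclase (0.86), and a pair of probes of Lpin1, a phosphatidate phosphatase (0.86 and 0.84). The lowest were Cdc42se1 (-0.91), Stard3nl (-0.88), Eef1a1, a translation elongation factor (-0.86), Baiap2l2 (-0.83) and Pdcd10 (-0.80). For the downstream probe the highest were Foxk2, a forkhead factor (0.94), Gtf2ird2 (0.89), Pgm2, a phosphoglucomutase now named Pgm1 (0.89), Cdc2l6 (0.89) and Amd1 (0.88). The lowest were Art5 (-0.85), Selenbp1 (-0.84), Peci, an enoyl-CoA isomerase now named Eci2 (-0.84), Acss1, an acetyl-CoA synthetase (-0.84), and Pdcd6 (-0.82). These values describe 16 mice and are the extremes of a ranking over the 15384 probes measured on all 16 arrays and carrying a gene name that is no accession, clone or unnamed transcript.

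Of 38 further gene names of polyamine, methionine and hypusine metabolism, 34 had a probe and 23 were kept with 30 probes. The 38 include older and newer names of the same gene. Before adjustment (limma p of 0.05 or less), 2 of the 30 probes were higher in cHF+F+ROSI mice, 0 were lower, and 0 passed after adjustment, beside 7.46% of all probes that differed at this limit. Their median difference was 0.0055, and 15 of 30 lay above 0. One of the higher probes was of Apip, an enzyme of methionine salvage, with a difference of 0.13 (SE 0.05, unadjusted p = 0.0323) and levels from -0.51 to -0.06 in cHF+ROSI and from -0.17 to -0.08 in cHF+F+ROSI mice, whose range lay inside that of the other diet. The other was of Dohh, which completes the hypusine of eIF5A from spermidine, with 0.21 (SE 0.07, unadjusted p = 0.0108), while its other probe had -0.02. In relation to Smox, 5 of the 30 probes had a limma p of up to 0.05 with the upstream probe (9.07% of all probes). These were Mat2a, which makes S-adenosylmethionine (r = 0.82, adjusted p = 0.136 from limma), and Slc3a2 (0.70), Amd2 (0.68), Azin1 (0.53) and Cat (-0.57). With the downstream probe 6 did (10.1% of all probes). These were Atp13a2 (r = 0.63), Azin1 (0.63), Mat2a (0.58), Amd2 (0.55), Mtap (0.55) and Aldh9a1 (0.47). Azin1, an inhibitor of the antizymes, was measured by a pair of probes, of which one had r of 0.53 with the upstream and 0.25 with the downstream Smox probe and the other 0.29 and 0.63.

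Markers of the cell types that the muscle could hold were set beside these values. Of the listed gene names, 6 of 6 skeletal muscle fibre, 5 of 5 slow fibre, 5 of 6 adipocyte, 3 of 4 red blood cell, 5 of 6 macrophage, 4 of 4 endothelial and 4 of 4 fibroblast names passed the filter. Names not counted had no probe on the array, and the adipocyte and macrophage lists each give a gene under an older and a newer name. RNA of every list was thus measurable. The filter, a limit on weak signals, does not tell tissues apart. Of the muscle fibre, slow fibre, adipocyte, red blood cell, macrophage and fibroblast lists, with 5 to 9 probes each, 0 probes had an unadjusted p of 0.05 or less. In the endothelial list 3 of 6 probes did, all lower (3.96% of all probes were), with the mean of the list from -0.23 to 0.03 in cHF+ROSI and from -0.30 to -0.09 in cHF+F+ROSI mice. The r of that list was 0.54 with the upstream and 0.05 with the downstream Smox probe, and 0.11 with the mean of the antizyme probes. The slow fibre list had a median difference of -0.45. Its r was 0.03 with the upstream and -0.49 with the downstream Smox probe, and 0.46 with the antizyme mean. The fibroblast list had r of 0.29 and 0.31 with the upstream and downstream Smox probes and -0.56 with the antizyme mean. The part of these lists in the results was not tested.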

How the data were processed

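RNA of gastrocnemius from 8 cHF+ROSI and 8 cHF+F+ROSI mice was measured on 16 two-color Agilent arrays, 1 per mouse, on 4 slides. The authors deposited spot intensities of both channels, quantified by Feature Extraction (10.5.1.1 per the file headers, 10.5.5.1 in the submitters' processing notes), and a table of log2 values, made in GeneMaths XT, where weak spots were removed and Cy5 was scaled against Cy3. That table holds 24377 probes and Cy5-scale values (column medians 9.47 to 9.49, correlation with the Cy5 signals at least 0.998), so that its direction is that of the Cy5 signal, while its exact scaling and centring stay unknown. In it, 8 columns name a diet but no replicate. It was used as an alternative.

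From the deposited intensities, median signals were corrected by normexp (offset 50) and the log2 ratios of Cy5 to Cy3 were adjusted by loess (span 0.3, 4 iterations) within arrays, in R 4.3.3 with limma 3.58.1. A spot had to reach a mean signal of 2 times background in Cy5 and in Cy3, which left 20703 of 43379 spots and 19398 probes. Spots flagged as outliers (0.309%) were left out, and no 2 arrays held identical values. Diets were compared with lmFit and eBayes on all 16 arrays, with exact permutation tests over mice for single probes. Relations to Smox used residuals from diet means, 100000 permutations and a limma fit over all probes. The offset makes fold changes of weak probes smaller. The number of arrays limits the precision. The fit was tested on simulated data.

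Named genes were all member probes, the 5 probes most and least like each Smox probe, and the listed pathway genes at an unadjusted p of up to 0.05. For the pathway genes this p was that of the diet comparison or of the relation to a Smox probe. Members, lists and alternatives were chosen with earlier results of these data known. Replicate numbers were not taken as pairs: same-numbered mice had deviations correlated from -0.34 to 0.73. Alternatives covered background correction, normalization, channel, the authors' table, filters, array weights, slide and replicate blocks, the methods' t-test, the other Smox probe and each mouse left out. The log ratios and p-values that Feature Extraction wrote for each spot were not used.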

Additional observations from a re-analysis of the deposited data

Results flagged for a closer look

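In 34 groups of 7 or 8 mice at the 17 member probes, 2 single mice lay apart from the others of their diet by Dixon's criterion, which chance alone would meet in about 5% of groups. At Oaz2 probe a (A_51_P311945), cHF+ROSI replicate 6 had a level of -0.46, with the nearest mouse at -0.30. At Oaz2 probe b (A_52_P157408), cHF+ROSI replicate 1 had -0.11, with the nearest mouse at -0.56. Without these mice, the diet differences were -0.17 at probe a and -0.19 at probe b.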

How the results depend on the processing

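The diet difference of Smox at the upstream probe was 0.38 to 0.60 under the 13 alternatives and 0.36 to 0.62 with each mouse left out. Smox was chosen by its difference in these same arrays, so these ranges are a description and no support for it. The probes past an adjusted p under 0.05 over the whole array, 3 as reported, numbered 19 with the processed signals, 14 without background correction, 1 with median centring, 0 with scale normalization between arrays, 8 in the Cy5 channel alone, 10 in the authors' table and 14 with array weights, and 3 to 5 with single mice left out. Of the member probes other than Smox, 8 as reported, 2 passed an unadjusted p of up to 0.05 with scale normalization, 3 in the Cy5 channel alone, 3 in the authors' table and 7 to 9 with single mice left out. Of all probes at that limit, 53.1% were lower as reported and 38.1% in the Cy5 channel alone. Of the pathway list, 2 probes as reported, 1 passed with median centring, 4 in the authors' table and 1 to 3 with single mice left out. The cause of these shifts was not tested.

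The probes related to upstream Smox at an adjusted p under 0.05, 1 as reported, numbered 0 with median centring, scale normalization or the authors' table, 7 without diet in the model, 4 for the downstream probe, and 0 to 1 with single mice left out (0 without cHF+ROSI replicate 1 or 7). Of the members, 0 as reported, 1 was related by permutation with scale normalization, in the Cy5 channel alone, in the authors' table, with slide means removed too or within cHF+ROSI alone, 2 without removal of diet means, 3 without the 2 farthest mice, 7 for the downstream probe, 7 within cHF+F+ROSI alone, and 0 to 2 with single mice left out (2 without cHF+ROSI replicate 1). With the replicate number as a block, 0 probes passed an adjusted p under 0.05 for diet (1428 unadjusted) and 0 for the relation to Smox (761 unadjusted), and 1 member was related to Smox. For the permutation counts of members, the share over all probes was not computed. Of 8 number pairs, 4 had deviations correlated above 0.1, and 3 of 16 arrays were closest to their own number.

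Signs turned mainly near 0. Sat1 probe b gave -0.0019 with the processed signals, -0.026 with scale normalization, -0.0042 with array weights and -0.017 to 0.039 with single mice left out (-0.0038 without cHF+ROSI replicate 3, -0.0098 without cHF+ROSI replicate 5). Sat1 probe a gave -0.044 to 0.0082 (0.0069 without cHF+ROSI replicate 1, 0.0006 without cHF+F+ROSI replicate 1). Odc1 probe b gave 0.0021 in the authors' table and -0.16 to 0.017 with single mice left out (0.0034 without cHF+F+ROSI replicate 5). Oaz2 probe a gave 0.064 with scale normalization. For the downstream Smox probe, r of Oaz2 probe a was 0.30 with median centring, 0.62 with scale normalization, 0.089 in the authors' table and 0.020 within cHF+ROSI mice, and with scale normalization r was 0.014 at Oaz2 c and 0.50 at Oaz2 d. For the upstream probe, r of Amd1 was -0.19 and -0.34 with scale normalization and -0.048 at probe b within cHF+ROSI mice.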

Other observations

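The array also had 2 probes that the files name for Amd2 and for LOC672434, a predicted gene similar to Amd1; they were looked up after the values of Amd1 had been seen. The probe of Amd2 had a diet difference of 0.17 (SE 0.14, unadjusted p = 0.242 from limma) and, with diet means removed, r of 0.68 and 0.61 with the Amd1 probes over 16 mice. The probe named LOC672434 had a difference of 0.29 (SE 0.14, unadjusted p = 0.0533 from limma), r of 0.85 and 0.81 with the Amd1 probes and 0.77 with the downstream Smox probe. Probe sequences were not used here, and whether these probes share targets was not tested.

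The probes of the same gene differed in how closely they followed each other across mice, with diet means removed. For Amd1 r was 0.95 and for Odc1 0.88, while it was 0.57 for Oaz1, 0.49 for the kept Sms probes and 0.32 for Sat1, and the 6 pairs of Oaz2 ran from 0.53 to 0.97. Srm and Oaz2 had r of 0.37 to 0.76, and Oaz1 and Oaz2 of 0.49 to 0.75.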
